A study of Homo sapiens with 15 samples.

Results

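The 15 dual-color arrays were read together here to describe what 5 different miRNA experiments in A549 cells had in common. A549 is an established human lung adenocarcinoma line. On every array, RNA from cells given a synthetic oligonucleotide that raises one miRNA (the mimic, labeled with Cy5) was hybridized against RNA from cells given an LNA antisense oligonucleotide to the same miRNA (the antagomir, labeled with Cy3). Both oligonucleotides were used at 20 nM and RNA was taken 24 h after transfection. The miRNAs were miR-766, miR-629*, miR-565, miR-181d and miR-574-3p, with 3 arrays each, and the labels do not say whether the replicates are separate transfections. The log2 ratio of the processed signals, mimic over antagomir, was averaged within each miRNA and then over the 5 miRNAs. Of 30815 gene names on the array, 21596 passed the filter for signal above background and were tested. Among these, 7854 genes (36.4%) had a ratio of the same sign in all 5 miRNAs, namely 4711 higher and 3143 lower in mimic cells. The dye was never swapped, so that dye and treatment cannot be told apart in any ratio shared by the 5 miRNAs, and "higher" below always means brighter in the Cy5 sample with the mimic.

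A miRNA guides an Argonaute protein to mRNAs that pair with its seed, the bases 2 to 8 of the mature strand, and the bound mRNA is repressed and degraded. A mimic adds that guide strand to the cell, whereas an antagomir pairs with the endogenous strand and blocks it. The 5 experiments used different miRNAs and shared the procedure of transfection, the contrast of mimic with antagomir and the dye assignment, and the overlap of their targets was not measured. The mature sequences that RefSeq (GRCh38.p14) holds for 3 of the 5 miRNAs are given with the seed in capitals, since they show which bases the experiments could share.
miR-181d, chr19:13874910-13874932, plus strand: aACAUUCAuuguugucggugggu
miR-574-3p, chr4:38868092-38868113, plus strand: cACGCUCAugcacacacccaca
miR-629*, chr15:70079387-70079408, minus strand: gUUCUCCCaacguaagcccagc
No seed was the same between any pair of the 3, and miR-565 and miR-766 are named only.

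Between 69.0% and 76.2% of the probes of an array were well above background in the Cy5 channel and between 69.6% and 73.7% in the Cy3 channel. The precision is limited by the number of arrays. Replicate 1 of miR-565 stood apart, with an SD of the log2 ratio over tested probes of 0.921 against 0.241 to 0.485 on the other 14 arrays. Its mean correlation with the arrays of the other miRNAs was 0.200, against 0.218 to 0.507 for the others. All 11 markers of A549 as an epithelial lung tumor line, such as KRT8, KRT18, ALDH1A1, AKR1B10 and AKR1C1, were well above background in both channels on all 15 arrays. Of 12 markers of leukocytes, endothelium and fibroblasts, 4 passed the filter, and the summed signal of all 12 was 211 to 453 in Cy5 and 199.9 to 320.4 in Cy3. CD14 (119 to 292 over both channels), CD3E (20.4 to 57.4), COL1A1 (27.0 to 57.6) and VWF were well above background in both channels on all 15 arrays. DCN reached 12.6, and PTPRC, CD3D, PECAM1, CDH5, COL3A1 and LUM did not exceed a signal of 5.25 on any array. The only one of these markers that was called higher was VWF, the von Willebrand factor of endothelium (0.40 ± 0.097 (SE, n = 5 miRNAs)), with Cy5 signals of 9.70 to 21.8 on the 15 arrays. After normexp and loess its ratio was 0.06 and it was not called, nor was it without replicate 2 of miR-565 or without miR-181d, miR-629* or miR-766.

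To identify genes whose ratio was shared beyond the spread between miRNAs, the 5 miRNA means were tested against 0 with limma. At a Benjamini-Hochberg adjusted p under 0.05, 5461 genes (25.3% of those tested) were called, 3016 of them higher (14%) and 2445 lower (11.3%). Without adjustment the counts at p under 0.05 were 4844 and 4044. The share of genes with one sign in all 5 miRNAs was 21.8% for higher and 14.6% for lower, and 4971 of the called genes (91.0%) were among them. Call and sign were read from the same 5 means, so that this overlap was largely fixed in advance. Most of the shared ratios were small. The median size of a called ratio was 0.26 on the log2 scale against 0.12 over all tested genes, and 620 called genes reached 1.5-fold and 132 reached 2-fold. SF3B5 (-0.08, adjusted p = 0.0499) and RTF2 (-0.12) lay just inside the threshold, while FNBP1 (0.19) and ADARB1 (0.20) lay just outside it.

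The number of called genes depended on a few arrays and on how slides were treated. Without replicate 1 of miR-565, 9608 genes were called, and without replicate 2 or 3 of miR-565 the counts were 2362 and 2748. Leaving out miR-629* gave 1294 calls, leaving out miR-766 1923 and leaving out miR-181d 3138. Counts of list members with an array or miRNA left out are to be read beside these totals, since calls over all genes moved as well. The arrays lay on 4 slides that are nearly split by miRNA, and with the slide as a random block over the 15 arrays 24 genes were called, 17 higher and 7 lower, of which 22 were among the 5461. The 17 higher genes include ZDHHC15, APOC2, CD84 and further transcripts without a symbol that passed the filter through Cy5 only. Their calls are not read as results. All calls below are those of the fit over 5 miRNA means, and where another gene named below also passed with the slide block this is said. Of the 7854 genes with one sign in all 5 miRNAs, 7528 (95.9%) had that sign in the mean of each of the 4 slides, and 7514 kept it without replicate 1 of miR-565. Both counts follow largely from how the genes were picked, since the slides nearly follow the miRNAs. They do not show that the ratios are free of slide effects. The share of called genes that were higher was 55.2% here, 45.5% when each array was centered on its median and 43.8% after normexp correction and loess. On all 15 arrays, 1376 genes were higher and 548 were lower.

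The sign of a gene in 4 miRNAs was then read in the miRNA not used. Genes higher in the other 4 were also higher in miR-629* in 95.3% of cases, in miR-766 in 91.6%, in miR-181d in 86.6%, in miR-574-3p in 81.4% and in miR-565 in 74.0%. The same shares for lower genes ran from 67.3% in miR-565 to 93.0% in miR-766. Among lower genes with a mean size of at least 0.3 in the other 4, the share was 58.5% in miR-574-3p and 74.1% in miR-181d. It was 95.1% to 98.4% in the other miRNAs, and 87.0% to 97.6% for higher genes of that size. Over all tested genes, 52.0% to 55.6% were higher in a given miRNA. Across genes, the miRNA means correlated with Pearson's r of 0.30 between miR-181d and miR-574-3p up to 0.82 between miR-629* and miR-766. The pairs of miRNAs with arrays on a common slide had r of 0.39 to 0.43, and the pair with 0.82 had none. These shares describe the arrays and carry no test.

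**Figure D1:**
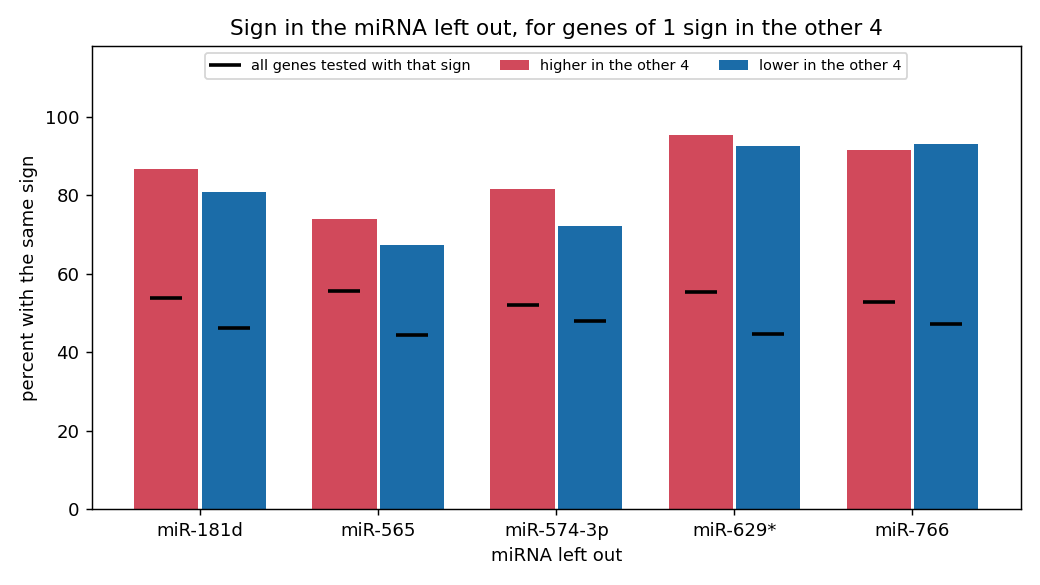
Percent of genes whose log2 ratio in the miRNA named on the x axis had the same sign as in the other 4 miRNAs, for genes higher (red) and lower (blue) in those 4. Black lines mark the percent of all tested genes with that sign. The bars run from 67.3% for lower genes in miR-565 to 95.3% for higher genes in miR-629*, and each stands above its black line.

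A gene is represented by its brightest probe, so that a 2nd probe of the same gene is a separate reading of the same RNA. For 821 genes called higher that had another tested probe, the 2nd probe was positive in 64.2%, called higher in 149 and called lower in 51. For 541 genes called lower, it was negative in 66.2%, called lower in 174 and called higher in 33. Across 5505 genes the mean ratios of both probes correlated with r = 0.27. Among 4143 genes that were not called, the signs of both probes were the same in 58.3%.

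The leading genes were read among called genes that had a current symbol, were above background in both channels on all 15 arrays and kept one sign on all 15 arrays, and there were 1127 of these, 822 higher and 305 lower. The highest was IKZF4, a transcription factor of the Ikaros family, whose ratio ran from 0.36 to 1.17 over the 15 arrays with a median of 0.68. Its 5 miRNA means lay between 0.57 and 0.80, so that no miRNA stood apart, and their mean was 0.69 ± 0.057 (SE, n = 5; limma adjusted p = 0.00197). MAGI2, a scaffold of cell junctions, followed with 0.66 ± 0.063 and a range of 0.44 to 0.98. RNU12, the U12 RNA of the minor spliceosome, had a mean of 0.63 ± 0.114 but the widest range of the 12, from 0.01 to 1.97 on replicate 1 of miR-565. FAM241A, annotated on this array as C4orf32, was the most even gene, with 0.52 on the lowest array, 0.64 at the median and 0.72 on the highest (0.62 ± 0.035, adjusted p = 0.000598). It was the only one of these 12 that was also called with the slide as a block (adjusted p = 0.00801).

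The other leading higher genes were DCLK1, a doublecortin-like kinase on microtubules (0.61 ± 0.089), AMPD3, an AMP deaminase (0.59 ± 0.062), PRR5L, which binds mTOR complex 2 (0.56 ± 0.114), and RNF214, a RING finger protein (0.54 ± 0.058). They were followed by OR5L2, an olfactory receptor (0.54 ± 0.075), the zinc finger gene JAZF1 (0.53 ± 0.073), RASAL3, a Ras GTPase-activating protein (0.53 ± 0.074), and SPATA2, an adaptor that brings CYLD to the ubiquitin chain assembly complex (0.52 ± 0.107). Apart from FAM241A, with mean signals of 1077 in Cy5 and 701 in Cy3, these genes were dim, with mean Cy5 signals of 25.4 for PRR5L to 141 for RNF214. After normexp correction with an offset and loess, the ratios of these 12 genes were 0.13 to 0.57, and 11 of them were more than 1.5 times smaller than with the processed signals. All 12 were still called. None of the 24 leading genes was called in the F-test between the miRNAs. That test called 126 genes with all arrays and 883 without replicate 1 of miR-565, so that a missing call does not show equal ratios. The miRNA means of ANKK1, a leading lower gene, ran from -1.32 in miR-565 to -0.35 in miR-574-3p.

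**Figure D2:**
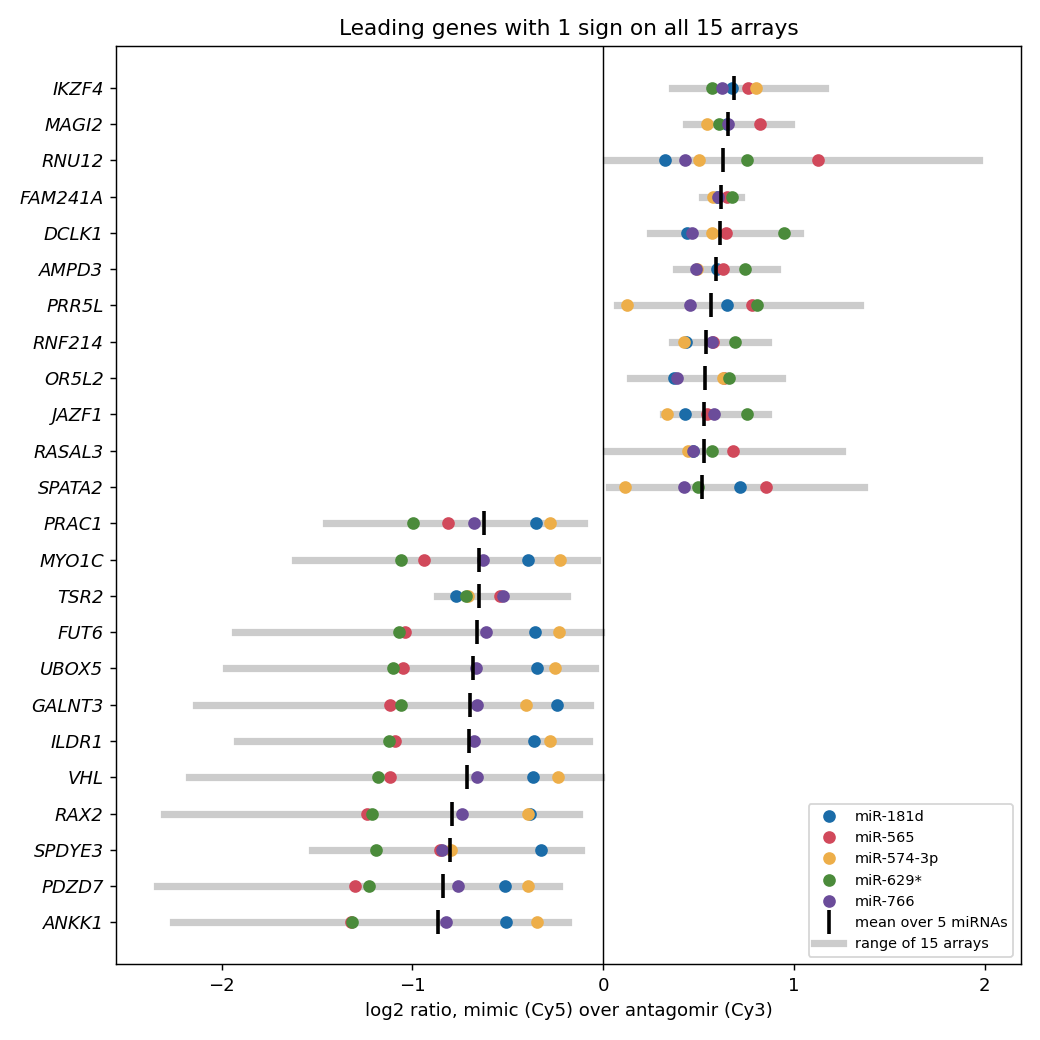
Log2 ratio of mimic (Cy5) over antagomir (Cy3) on the x axis for the 12 leading higher and 12 leading lower genes on the y axis. Colored points are the 5 miRNA means, black bars their mean and gray bars the range of the 15 arrays. All gray bars stay on one side of 0, and FAM241A has the most even miRNA means of the 24, while in 11 of the 12 lower genes, all but TSR2, miR-565 and miR-629* are the lowest miRNAs.

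Ratios of 2-fold or more came from dim probes when higher. Of 40 called genes at least 2-fold higher, 19 were never well above background in Cy3, and in 0 of the 40 were both channels above background on all 15 arrays. The mean signals of the 40 were 8.98 to 32.7 in Cy5 and 1.59 to 15.6 in Cy3, and all 40 were positive on all 15 arrays. With Cy3 signals this dim, the shared sign is not read as a result. The 4 examples given here were chosen after their values were seen, and their fold is a bound against the lowest signal well above background in Cy3. ZDHHC15, a palmitoyltransferase, was at least 4.32-fold higher. APOC2, the activator of lipoprotein lipase, was at least 3.46-fold higher, OR2W3 at least 3.44-fold and the leukocyte receptor CD84 at least 3.41-fold. These 4 genes passed the filter through Cy5 only and were above background in Cy3 on none of the 15 arrays, so that no test is read from them. Of the 92 genes at least 2-fold lower, 4 had one sign on all 15 arrays. The median ratio of the 92 was -0.08 in miR-181d against -2.05 in miR-565 and -1.74 in miR-574-3p.

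The base sequence of the probe moved with the ratio. Probes with the 3 bases GTA (read 5′ to 3′ in the probe, overlaps with other words allowed) had higher ratios the more copies they held, and 52.9% of the tested probes had none. The median ratio was -0.02 for 15480 probes with no copy, 0.03 with 1 copy, 0.09 with 2, 0.15 with 3 and 0.23 for 207 probes with 4 or more. The percentage called higher rose in the same order as 7.38, 14.7, 26.6, 39.3 and 58.9. The order was the same among probes of 35% to 40% GC and among probes of 45% to 50% GC, and in each miRNA alone the median of probes with 4 or more copies was 0.16 to 0.29. Probes with the run GGGGG, 2.92% of those tested, had a median of -0.11 and were called lower in 27.8%, against 10.8% of the other probes. Of the 12 leading higher genes, 7 had at least 2 copies of GTA, and 0 of the 12 leading lower genes had. Parts of 3 such probes are shown because they carry the leading higher ratios, with the word in capitals (NCBI36 coordinates of the whole probe).
IKZF4, chr12:54718398-54718457, plus strand: gagatatactactGTAagttttGTActGTA
FAM241A, chr4:113329418-113329477, plus strand: ctaactatttaGTAtactgtcaGTActGTA
JAZF1, chr7:27836902-27836961, minus strand: tgttatactgtGTAtagtgaatGTAttGTA
These words were chosen after the ratios were seen, and their part in the results was not tested.

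**Figure D3:**
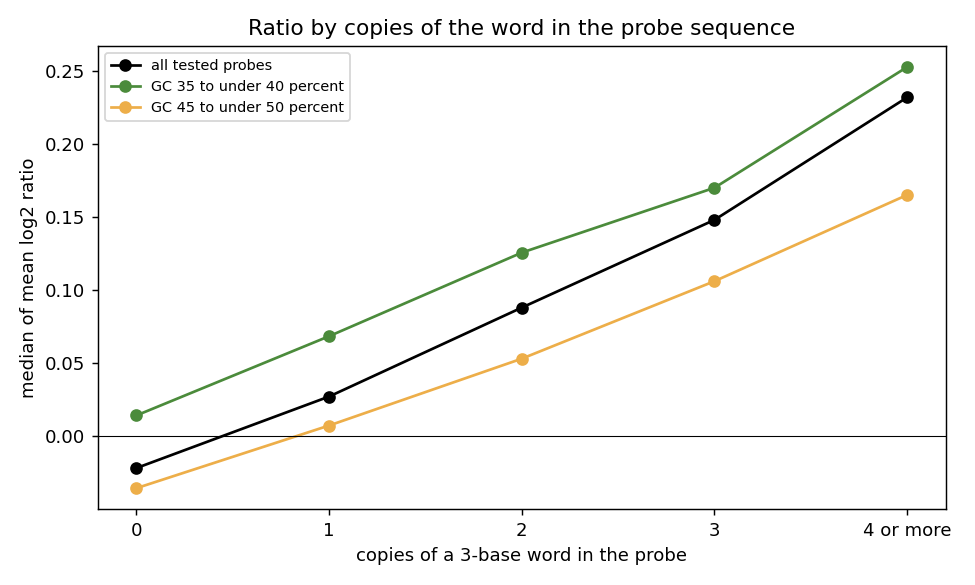
Median of the mean log2 ratio over 5 miRNAs (y axis) by the number of copies of the 3-base word in the probe (x axis), for all tested probes (black) and for probes of 35% to 40% (green) and 45% to 50% GC (orange). All 3 lines rise with each added copy, the black one from -0.02 to 0.23.

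Among the 12 leading lower genes, 10 gave a like profile over the arrays and carried the same kind of sequence. ANKK1, a kinase gene, was the lowest with -0.86 ± 0.146 (SE, n = 5; adjusted p = 0.00864) and ran from -2.26 on replicate 1 of miR-565 to -0.19 on replicate 3 of miR-181d, with a median of -0.60. PDZD7, a scaffold of hair cells, had -0.84 ± 0.134, the retinal homeobox gene RAX2 -0.79 ± 0.137, and VHL, which recognizes hydroxylated HIF for degradation, -0.71 ± 0.139. ILDR1 of tricellular junctions had -0.70 ± 0.129, GALNT3, which starts O-linked glycans, -0.70 ± 0.127, and the ubiquitin ligase UBOX5 -0.68 ± 0.127. The fucosyltransferase FUT6 had -0.66 ± 0.126, the motor protein MYO1C -0.65 ± 0.116, and PRAC1 -0.62 ± 0.102. Their median was -0.37 in miR-181d, -1.10 in miR-565, -0.28 in miR-574-3p, -1.11 in miR-629* and -0.67 in miR-766. Over the 15 arrays the profile of each correlated with that of ANKK1 with r of at least 0.937, given as a likeness without a test. Of 80 tested probes with r over 0.95, 22 are these genes or belong to the sets of Alu probes described next, and the others do not.

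These 10 probes were read as Alu sequence from their own bases and the runs they share, since no repeat annotation was used. Alu is the most abundant short interspersed repeat of primate genomes and is carried in the introns and untranslated ends of many transcripts. The probes were very bright, with mean log2 signals of 10.2 to 16.5 against a median of 8.31 over all tested genes. Of 17 other tested probes that share a run of 14 bases with one of the 10 on the same strand, 14 were called lower, against 11.3% of all genes. Their median was -0.61. Of 21 that share such a run with the opposite strand, 14 were called lower, against 11.3% of all genes, with a median of -0.41. Both sets were made after the profile was seen. Of the 5 genes among the 10 that have a 2nd tested probe, only MYO1C was also called lower there (-0.21, adjusted p = 0.0462). The 2nd probe of VHL was called higher (0.19, adjusted p = 0.0434), and those of RAX2 (0.21), UBOX5 (0.08) and FUT6 (0.08) were not called. A probe with Alu sequence can bind RNA of many transcripts, so that the gene behind each of these 10 ratios is uncertain. With the slide as a block none of the 10 was called, with adjusted p of 0.491 for ANKK1 to 0.654 for GALNT3.

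**Figure D4:**
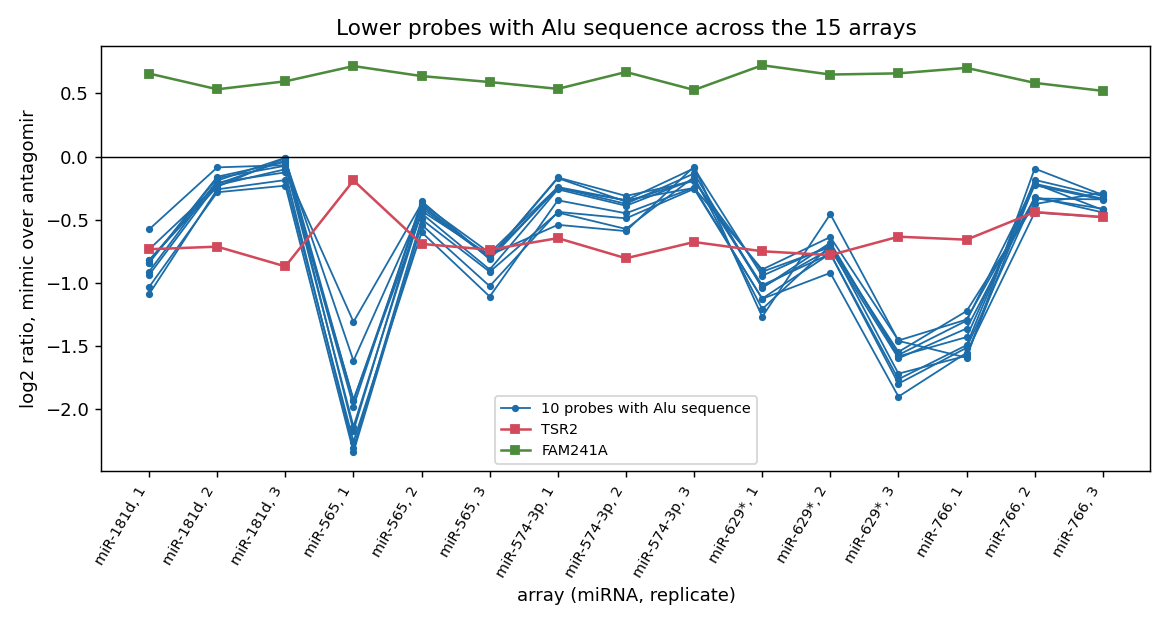
Log2 ratio of mimic over antagomir (y axis) on each of the 15 arrays (x axis, miRNA and replicate) for the 10 leading lower probes with Alu sequence (blue), TSR2 (red) and FAM241A (green). The blue lines move together and 9 of the 10 are lowest on replicate 1 of miR-565, while TSR2 and FAM241A stay between 0.52 and 0.72 (FAM241A) and between -0.87 and -0.19 (TSR2).

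TSR2 and SPDYE3 were the 2 leading lower genes without Alu sequence. TSR2, a chaperone of ribosomal protein eS26, had 5 miRNA means of -0.77 to -0.53 and was -0.69 at the median array (-0.65 ± 0.0485, adjusted p = 0.00131). It was -0.87 on the lowest and -0.19 on the highest array, the latter being replicate 1 of miR-565. It also passed with the slide as a block (adjusted p = 0.0186). SPDYE3, a member of the multi-copy Speedy family of CDK activators, had -0.80 ± 0.109 and ran from -1.53 to -0.12. Its near-identical copies cannot be told apart by 1 probe, and the mean of its probes was -0.45.

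The immediate early genes are the first to respond to growth factors and stress, through serum response and AP-1 factors, and DUSP and SPRY proteins feed back on the MAP kinases that induce them. Of 34 tested members, 12 were called higher (35.3%, against 14% of all genes) and 1 lower (2.94%, against 11.3%), with a median of 0.11 against 0.01. EGR1, a zinc finger factor of this response, ran from -0.22 to 1.43 over the arrays with a median of 0.71, and its miRNA means were 0.97 in miR-565, 0.95 in miR-629*, 0.81 in miR-574-3p, 0.56 in miR-181d and 0.14 in miR-766. Only 1 of its 15 arrays was negative and miR-766 stood lowest (0.69 ± 0.129, adjusted p = 0.0119). EGR1 was dim, with mean signals of 33.9 in Cy5 and 20.5 in Cy3, its ratio was 0.20 after normexp and loess, and it was not called without miR-629* or with the slide block. ATF3, a stress-induced partner of JUN proteins, was positive on all 15 arrays from 0.15 to 0.88, with a median of 0.37 (0.40 ± 0.053, adjusted p = 0.0044). NR4A3 (0.31), NR4A1 (0.25), KLF10 (0.26), JUND (0.23) and JUNB (0.19) rose among the factors, as did the feedback genes SPRY2 (0.29), DUSP5 (0.26, but 0.00 in miR-574-3p) and DUSP1 (0.18). The feedback genes DUSP6 (-0.05) and SPRY4 (-0.02) were not called. The AP-1 subunits themselves were mixed, since FOS (0.05), JUN (0.03) and FOSB (0.43, adjusted p = 0.156) were not called, nor was MYC (0.02). IER2 fell (-0.22 ± 0.026), with all 15 arrays negative. The median of the list was positive in each miRNA, from 0.08 to 0.22. Without miR-629* 3 members were called higher and without miR-766 7.

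Targets of NF-kappaB, the factor of inflammatory cytokines, had a share of higher calls near that of all genes when all 15 arrays were used. Of 34 tested, 6 were called higher (17.6%, against 14% of all genes) and 1 lower (2.94%, against 11.3%), with a median of 0.07, and after normexp and loess 2 were called higher. The count of 6 became 13 without replicate 1 of miR-565, 3 when its replicate 2, its replicate 3 or all of miR-574-3p was left out, 2 without miR-766 and 1 without miR-629*. Over all genes, 5352 were called higher without replicate 1 of miR-565. The share of NF-kappaB targets was then above that of all genes, so that the near share depended on this array. CXCL8, the neutrophil chemokine, was positive on all 15 arrays from 0.01 to 1.34 and was largest in miR-629*, with a mean over the miRNAs of 0.64 ± 0.138 (adjusted p = 0.0175). CXCL8 was dim, with mean signals of 17.1 in Cy5 and 11.3 in Cy3 and both channels above background on 12 arrays. After normexp and loess CXCL8 was at 0.11 and still called, and without miR-629* or with the slide block it was not called. IL6 was positive on all 15 arrays too (0.50 ± 0.120), but at mean signals of 6.65 in Cy5 and 4.83 in Cy3 with both channels above background on 5 arrays, and after normexp and loess it was at 0.05 and not called, nor was it without miR-629* or miR-766 or with the slide block. NFKBIA, the feedback inhibitor of NF-kappaB, rose by 0.20 ± 0.030 at a signal of 9544, and PTX3 (0.33), PTGS2 (0.14) and TNIP1 (0.13) also rose. NFKBIZ fell (-0.33 ± 0.065), negative on all 15 arrays.

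Interferon and double-stranded RNA genes sense and answer foreign RNA. Of 50 tested, 4 were higher (8%, against 14% of all genes) and 9 lower (18%, against 11.3%), with a median of 0.01. MX1 (0.33), HERC6 (0.25), IRF9 (0.19) and USP18 (0.16) rose. IFIT3 (-0.42 ± 0.109) and the tether BST2 (-0.40 ± 0.093) fell, at signals of 18.9 to 31.7, and neither was called when miR-181d, miR-574-3p, miR-629* or miR-766 was left out. The kinase EIF2AK2, which binds double-stranded RNA, fell by 0.23, as did IRF3 by 0.28. These counts were 10 and 13 without replicate 1 of miR-565, and with its replicate 2 or 3 or a single miRNA left out they went down to 0 and 1. Of 33 p53 targets, 1 rose (3.03%, PPM1D, 0.16) and 6 fell (18.2%, against 11.3% of all genes), led by PHLDA3 (-0.43 ± 0.050), an inhibitor of AKT. The 6 lower calls became 12 without replicate 1 of miR-565, 2 without its replicate 2 or 3, 3 without miR-181d or miR-574-3p and 1 without miR-629* or miR-766, and no p53 target was higher in limma with median centering.

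Genes of the unfolded protein response and of ATF4, the factor of amino acid and endoplasmic reticulum stress, numbered 41, of which 5 rose (12.2%, against 14% of all genes) and 11 fell (26.8%, against 11.3%). The 11 became 17 without replicate 1 of miR-565, 4 without its replicate 2 or 3 or without miR-181d, 7 without replicate 1 of miR-766, 5 without miR-574-3p and 3 without miR-629* or miR-766. PDIA3, a disulfide isomerase, fell in every miRNA between -0.45 and -0.32 (-0.36 ± 0.031, adjusted p = 0.00199), with all 15 arrays negative. The serine synthesis enzyme PHGDH (-0.26), the amino acid transporter subunit SLC3A2 (-0.21) and the chaperone HSPA5 (-0.16) also fell, while DDIT3, the CHOP factor, rose by 0.31 ± 0.054 and ATF6 by 0.21. Among 36 targets of NRF2, the factor of oxidative defense, 5 rose (13.9%, against 14% of all genes) and 10 fell (27.8%, against 11.3%). The lower calls became 3 without replicate 2 or 3 of miR-565 or without miR-766, 2 without miR-629*, 5 without miR-181d and 6 without miR-574-3p. The higher calls became 10 without replicate 1 of miR-565 or without miR-565, 2 without its replicate 2 or 3 or without miR-181d, and 1 without any of the remaining miRNAs or with median centering. ALDH3A1, an aldehyde dehydrogenase abundant in A549, was the lowest at -0.51 ± 0.058, from -0.74 to -0.06 over the arrays. PRDX1 (-0.19) and PGD (-0.15) fell as well, whereas CBR1 (0.24 ± 0.034), NFE2L2 itself (0.20, but -0.04 in miR-565) and AKR1B10 (0.18) rose. Among 36 heat shock genes and chaperones, 4 rose (11.1%, against 14% of all genes) and 5 fell (13.9%, against 11.3%), with BAG3 at 0.22 and the chaperonin subunit CCT3 at -0.23. These counts were 12 and 10 without replicate 1 of miR-565, and without its replicate 2 or 3 the higher count was 1. HSP90AA1 was at -0.40 and not called, and PTGES3 was called lower at -0.24.

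Clustered histone genes are expressed in S phase from promoters that often hold a CCAAT box, and their mRNAs end in a stem loop. Of 55 tested, 16 were called higher (29.1%, against 14% of all genes) and 1 lower (1.82%, against 11.3%), with a median of 0.06. H3C12 had 0.36 ± 0.055 and was positive on all 15 arrays, from 0.10 to 0.85. H2BC8 (0.34), H2BC4 (0.31), H2BC21 (0.28), H2BC15 (0.28) and H2BC11 (0.27) followed, and 10 of the 16 were positive on all 15 arrays. H4C5, selected with H3C12 for the size of its mean, went the other way. It was between -0.43 and -0.18 in 35 alternatives, with limma adjusted p up to 0.842. Clustered histone genes are near-identical copies, so that the member behind a probe is uncertain. Their list median was 0.26 in miR-565 but -0.01 in miR-181d and 0.00 in miR-574-3p. When replicate 1 of miR-565 was left out it was 0.04 with 20 called higher and 10 lower. Without replicate 2 or 3 of miR-565, or without miR-766, 8 were called higher, and without miR-629* 3.

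Promoters of RefSeq (250 bases before to 50 after the start, GRCh38.p14) were searched on both strands for the AP-1 word TGACTCA, the cyclic AMP response word TGACGTCA, the CCAAT box, the serum response element and the NF-kappaB site, words that do not contain each other. The serum response word was in 1.07% of 15921 promoters of tested genes and in 1 of 13 promoters of the immediate early genes called higher, that of EGR1. Among these genes, SPRY2, ATF3 and NR4A1 had more than 1 promoter each, and KLF10, DUSP5 and ETV5 had none in the search. The cyclic AMP response word was in 2 of these 13 promoters and in 2.39% of those tested. The AP-1 word was in 3.36% of promoters of genes called higher and in 3.13% of those tested, and in 0 of the 13. CCAAT was in all 16 promoters of the histone genes called higher, in 43 of 50 of the histone genes tested (86%) and in 32.9% of tested promoters. The promoter parts of EGR1 and of 2 histone genes are printed with these words in capitals, to show where the words lie in promoters of genes called higher.
EGR1, chr5:138465359-138465478, plus strand: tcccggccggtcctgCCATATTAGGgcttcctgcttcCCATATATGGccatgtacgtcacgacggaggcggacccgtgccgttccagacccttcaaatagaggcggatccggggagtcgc
H2BC8, chr6:26216689-26216808, minus strand: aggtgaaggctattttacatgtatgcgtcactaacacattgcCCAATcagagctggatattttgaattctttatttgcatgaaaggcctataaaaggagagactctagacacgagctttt
H2BC4, chr6:26123927-26124046, minus strand: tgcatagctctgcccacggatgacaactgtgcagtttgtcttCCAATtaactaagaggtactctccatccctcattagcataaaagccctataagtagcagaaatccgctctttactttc
A match is a description of the letters and was not tested as a site.

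Genes of the cytosolic ribosome encode the proteins of both its subunits. Of 78 tested, 31 were called higher (39.7%, against 14% of all genes) and 6 lower (7.69%, against 11.3%), with a median of 0.06. RPS16 had almost the same ratio in all 5 miRNAs, 0.27 to 0.31, and was 0.14 on the lowest, 0.29 at the median and 0.46 on the highest array (0.30 ± 0.023, adjusted p = 0.00146). RPS27 was also positive on all 15 arrays (0.33 ± 0.030). RPL23 was the largest (0.40 ± 0.048) and its only negative array was replicate 1 of miR-565 at -0.38. RPL13A (0.28), RPS7 (0.27) and RPS20 (0.24) followed, and RPL17 (-0.22), RPLP2 (-0.21) and RPS9 (-0.19) fell. The probes of this list were the brightest (median log2 signal 16.4), and their pseudogene copies can add signal. The list median was 0.05 to 0.11 in the 5 miRNAs, and it was 0.22 with 53 called higher after normexp and loess. When all probes of a gene were averaged in place of taking the brightest, 19 were called higher, as many as without miR-766, and 15 without miR-629*.

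Of 47 initiation and elongation factors, 5 rose (10.6%, against 14% of all genes) and 10 fell (21.3%, against 11.3%), with EIF4G1, the scaffold of cap binding, at -0.38 ± 0.039 and EIF5A at -0.35 ± 0.041, while EEF1D rose by 0.26. Of 22 aminoacyl-tRNA synthetases, which charge tRNAs, 0 were called higher, against 14% of all genes, and 6 lower (27.3%, against 11.3%), led by AARS1 (-0.24 ± 0.033) and YARS1 (-0.24 ± 0.037). At an unadjusted p under 0.05 in limma, 0 of the 22 were higher. The lower synthetases were 2 at the lowest with a single miRNA left out. Without replicate 1 of miR-565, 2 synthetases were called higher and 10 lower, and the higher and lower factors were 11 and 13. Of 76 mitochondrial ribosomal proteins, 6 rose and 6 fell (7.89% each, below the 14% and 11.3% of all genes), with MRPS12 at -0.25 and MRPL2 at 0.20, and without that array 15 rose and 13 fell. MRPL2 kept its call in 26 of 35 alternatives. Without all of miR-629*, 1 factor was higher and 3 were lower, and 1 mitochondrial ribosomal protein rose and 2 fell.

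Splicing factors and hnRNP proteins had more lower than higher calls, 17 (23.3%, with 11.3% over all genes) against 6 (8.22%, with 14% over all genes) of 73, with a median of -0.05. SNRPB, a core protein of the snRNPs, was negative on all 15 arrays from -0.56 to -0.28, with a median of -0.37 (-0.39 ± 0.035, adjusted p = 0.00202), and also passed with the slide as a block (adjusted p = 0.012). HNRNPA0 (-0.44 ± 0.055), EWSR1 (-0.29) and the U5 protein PRPF6 (-0.22) fell. HNRNPH2 (0.38 ± 0.054), SRSF2 (0.32 ± 0.047) and PTBP1 (0.23) rose. All 6 higher members had at least 2 copies of GTA in their probe and 0 of the 17 lower members had. Over all tested genes 976 of the 3016 called higher had at least 2 copies. In other lists these were 2 of the 31 higher ribosomal genes, 3 of 12 immediate early genes, 0 of 6 NF-kappaB targets, 5 of 16 histone genes, 5 of 11 cytoskeletal genes, 6 of 15 respiratory chain genes and both higher replication genes. The 17 lower calls became 9 without replicate 2 of miR-565, 11 without miR-574-3p, 8 without miR-766 and 7 without miR-629*. There were 24 lower and 15 higher calls without replicate 1 of miR-565, and the 6 higher calls became 11 without miR-565, 3 without its replicate 3 and 2 without its replicate 2, miR-629* or miR-766.

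Genes of DNA replication and of the G1/S transition are E2F targets that copy the genome. Of 57, 12 were called lower (21.1%, against 11.3% of all genes) and 2 higher (3.51%, against 14%), with a median of -0.05. MCM7, a subunit of the replicative helicase, was negative on all 15 arrays from -0.42 to -0.20, with a median of -0.27 (-0.28 ± 0.028, adjusted p = 0.00243). CLSPN, which links the fork to checkpoint kinases, fell by 0.29 ± 0.051, and CDT1, FEN1 and CDC6 each by 0.21. POLE, the leading strand polymerase, was -0.48 ± 0.063 by its brightest probe, but the mean of its probes was 0.05 and not called. ORC6 (-0.43) is read by a probe of the same-strand Alu set. The 12 lower calls became 7 without replicate 2 or 3 of miR-565 and 5 without miR-629* or miR-766. With replicate 1 of miR-565 left out there were 17 lower and 9 higher calls, and without all of miR-565 6 higher. TYMS, the thymidylate synthase, rose in all 5 miRNAs (0.30 ± 0.033) and passed with the slide block (adjusted p = 0.0462), and E2F8 rose by 0.35. Of 63 genes of mitosis and the kinetochore, 6 rose (9.52%) and 3 fell (4.76%), below the 14% and 11.3% of all genes. The calls lay between KIF4A at -0.21 and SGO1 at 0.20. Without replicate 1 of miR-565, 22 of the 63 rose and 13 fell, against 5352 higher and 4256 lower calls over all genes. The share of higher calls was then above that of all genes, so that the low share depended on this array.

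Proteasome subunits form the 20S core that degrades ubiquitinated proteins and the 19S cap that unfolds them. Of 40, 9 were called lower (22.5%, against 11.3% of all genes) and 2 higher (5%, against 14%), and 8 of the 9 were negative on all 15 arrays. The count of lower subunits stayed between 7 and 11 with any array or miRNA left out. However, 12 subunits were called higher without replicate 1 of miR-565 and 11 without all of miR-565. Lower subunits then no longer outnumbered higher ones. Over all genes, 5352 were called higher and 4256 lower without replicate 1 of miR-565. The share of lower subunits without that array, 11 of 40, was still above that of all genes. PSMC3, an ATPase of the 19S cap, was -0.52 on the lowest, -0.43 at the median and -0.20 on the highest array (-0.39 ± 0.036, adjusted p = 0.0021), and it passed with the slide block (adjusted p = 0.0147). The 19S subunits PSMD13 (-0.29 ± 0.035), PSMD11 (-0.25) and PSMD2 (-0.20) and the core subunits PSMB5 and PSMB6 (-0.17 each) fell, while PSMB3 and PSME3 (0.15 each) rose. The list median was -0.17 in miR-565 and between -0.07 and 0.04 in the other miRNAs. With the slide as a block, the only members of the 24 lists that were called were SNRPB, PSMC3 and TYMS.

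**Figure D5:**
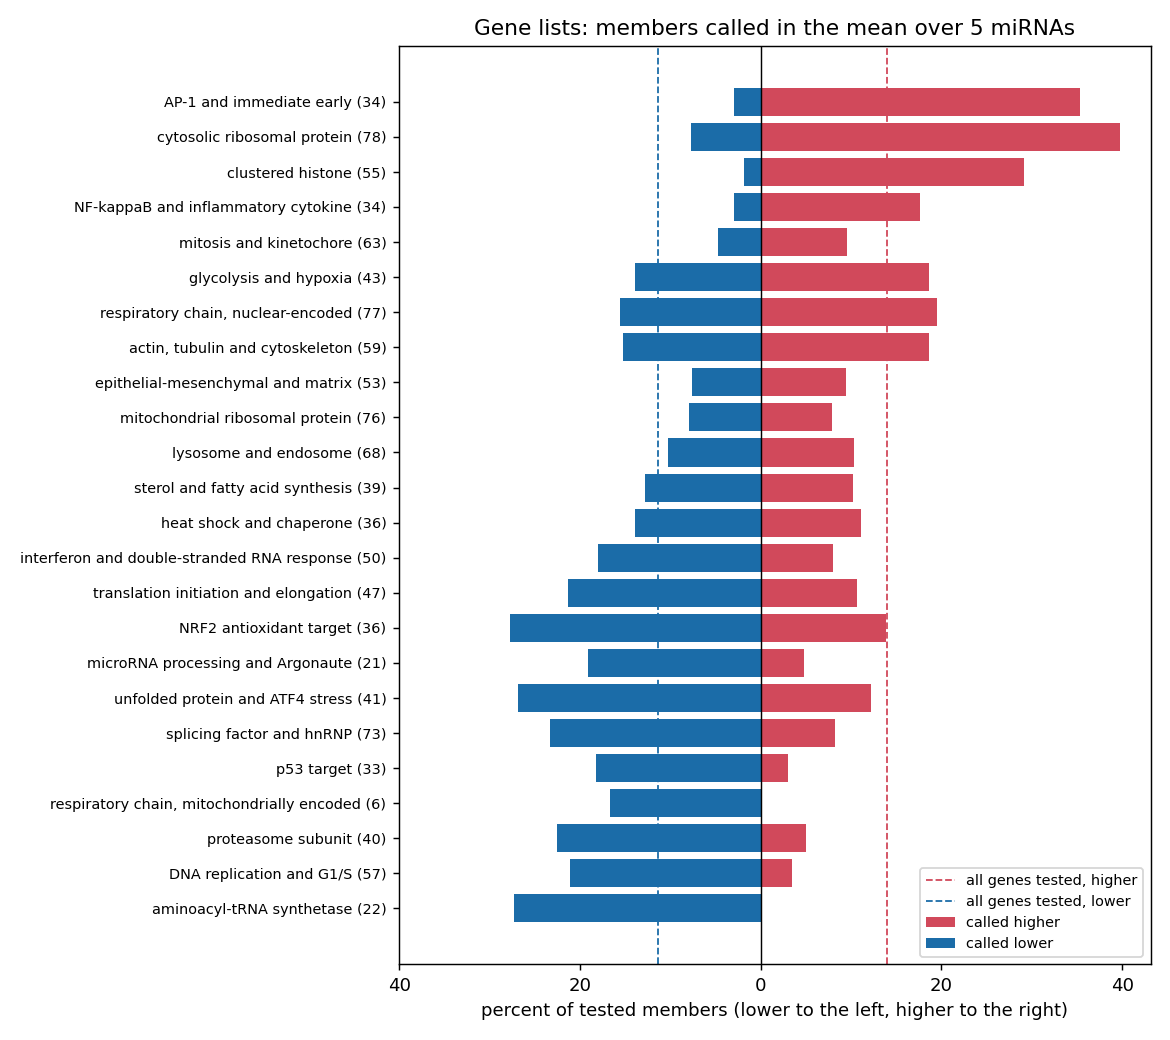
Percent of the tested members of each gene list (y axis, number tested in brackets) that were called higher (red, to the right) or lower (blue, to the left) in the mean over 5 miRNAs. Dashed lines mark the same percent over all tested genes, 14% and 11.3%. Of the bars drawn, ribosomal protein, immediate early and histone genes reach farthest to the right, and NRF2 targets (27.8%), aminoacyl-tRNA synthetases (27.3%) and unfolded protein and ATF4 genes (26.8%) reach farthest to the left.

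Metabolic lists had shares of calls near the 14% higher and 11.3% lower of all genes. Among 43 genes of glycolysis and hypoxia, 8 rose (18.6%) and 6 fell. The enolases ENO1 (-0.30 ± 0.030, all 15 arrays negative) and ENO2 (-0.35 ± 0.040), ALDOA (-0.26) and LDHA (-0.20) fell, and HK2 (0.28), HIF1A (0.24) and SLC2A1 (0.17) rose. Of 77 nuclear-encoded respiratory chain subunits, 15 rose (19.5%, against 14% of all genes) and 12 fell (15.6%, against 11.3%), with NDUFA5 at 0.32 and COX7B at 0.26. NDUFA5 kept its call in 30 of 35 alternatives, with values of 0.14 to 0.41. Leaving out replicate 1 of miR-565 gave 23 higher and 16 lower subunits, its replicate 2 gave 3 and 5, its replicate 3 gave 4 and 5, and all of miR-629* gave 2 and 3. Of 6 mitochondrially encoded subunits tested, ND6 was called, with -0.57 ± 0.039 (adjusted p = 0.0011) and all 15 arrays negative, and ND6 is the one subunit of these encoded on the light strand. Of 39 sterol and fatty acid genes, 4 rose (10.3%) and 5 fell (12.8%), with the mevalonate enzyme MVD at -0.36 and the sterol carrier STARD4 at 0.23. Of 68 lysosomal and endosomal genes, 7 rose and 7 fell (10.3% each). PSAP, the precursor of the saposins, was lower in every miRNA between -0.63 and -0.39 and ran from -0.89 to -0.20 over the arrays (-0.53 ± 0.041, adjusted p = 0.00146), and LAMP3 was at 0.41 ± 0.089. LAMP3 kept its call in 32 of 35 alternatives, with values of 0.12 to 0.47. Without replicate 1 of miR-565, 12 glycolysis genes rose and 11 fell, 16 lysosomal genes rose and 18 fell, and 6 sterol genes rose and 12 fell. Without its replicate 2 these counts were 3 and 5, 7 and 4, and 2 and 2, and without all of miR-629* they were 1 and 3, 3 and 1, and 1 and 1.

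Actin and tubulin filaments and the proteins that bind them form the cytoskeleton. Of 59 cytoskeletal genes, 11 rose (18.6%, against 14% of all genes) and 9 fell (15.3%, against 11.3%). The actin genes ACTB (0.29 ± 0.028, positive on all 15 arrays) and ACTG1 (0.27) rose, whereas the actin-binding proteins FLNA (-0.36 ± 0.051), ARPC5 (-0.24) and ACTN1 (-0.23) fell. Of the cofilins that sever actin, CFL1 fell (-0.27) and CFL2 rose (0.32 ± 0.036). Of 53 epithelial, mesenchymal and matrix genes, 5 rose (9.43%) and 4 fell (7.55%), below the 14% and 11.3% of all genes. The simple epithelial keratins KRT7 (-0.45 ± 0.0485) and KRT8 (-0.35 ± 0.031) were negative on all 15 arrays, while KRT18, the partner of KRT8 in filaments, rose by 0.19 ± 0.033. TGFB2, a ligand of the TGF-beta receptors, rose with all 15 arrays positive, from 0.11 to 1.27 (0.46 ± 0.054, adjusted p = 0.0034). Without replicate 1 of miR-565, 14 cytoskeletal genes rose and 21 fell, and 8 of the matrix list rose and 11 fell. Without all of miR-629* these counts were 6 and 5, and 2 and 3.

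The machinery of miRNAs was read because mimics occupy it. Of 21 miRNA genes, 1 was called higher (4.76%, against 14% of all genes), AGO1 (0.14 ± 0.032, positive on all 15 arrays), and 4 of 21 were called lower, against 11.3% of all genes. The lower count was 6 without replicate 1 of miR-565, 1 without its replicate 2 or without miR-181d or miR-629*, and 2 without its replicate 3 or miR-766, and the higher count was between 0 and 3. TNRC6C (-0.28 ± 0.051) and TNRC6B (-0.23), the GW182 proteins that recruit the deadenylases, and TSNAX (-0.23) fell. DGCR8, the RNA-binding partner of DROSHA, had -0.33 ± 0.094, but its mean was 0.04 in miR-574-3p and -1.85 was reached on 1 array of miR-565. DGCR8 kept its call in 20 of 35 alternatives, with values of -0.42 to -0.13 and adjusted p up to 0.804. DROSHA (0.10) and XPO5 (0.11) were not called.

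Few genes differed in size between the miRNAs beyond the spread of their arrays. In the F-test of the 5 coefficients, 126 genes (0.583%) had an adjusted p under 0.05, and 6 of the 5461 shared calls were among them. Without replicate 1 of miR-565 the F-test called 883 genes. UQCR11, a small subunit of complex III, was lower on all 15 arrays (-0.20 ± 0.061, adjusted p = 0.0482) and differed between miRNAs (adjusted p = 0.008), with -0.50 in miR-766 and -0.22 to -0.08 in the others.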

How the data were processed

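RNA of A549 cells was measured on 15 Agilent dual-color arrays. Per the file headers, Feature Extraction 9.5.3.1 gave the deposited intensity values, namely mean signals, backgrounds and processed signals that were background-subtracted, detrended and LOWESS dye-normalized. The deposited log10 ratio, its error as a score and its p-value per spot come from the same step. The series table holds the same log10 ratio (largest difference 0).

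Here, log2(Cy5/Cy3) of the processed signals was computed without 1639 control spots per array and without outlier spots (96 to 208 per array). Probes well above background in at least 1 channel on at least 2 of 3 arrays of every miRNA were tested (29254 of 41000). The 5 miRNA means were tested against 0 with limma 3.58.1 in R 4.3.3 (eBayes with intensity trend, Benjamini-Hochberg over all tested probes, called under 0.05), and differences between miRNAs with limma's F-test on the 15 arrays. A gene was read from its brightest probe. Named genes were the 12 highest and 12 lowest means among called genes with a symbol, one sign on all 15 arrays and both channels above background on all 15. The 2 tested members of each list with the largest size of mean were selected too, but not all are described with their lists. GINS4, KIF14, ZWILCH, PRPF19, LOX and MMP14 are among those left out. Further list members named in the text were chosen after their values were seen. Genes were named by accession for 23958 probes, and probe coordinates are those of the file (NCBI36).

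The members and lists were chosen with earlier results of these data known. The probe words, the Alu sets and the alternative that removes the median of probes of like GC content were chosen after the ratios were seen. Replicates are samples by their labels, and p-values measure only the spread between these samples, which may be technical. On simulated data for the mean over 5 miRNAs (29254 probes), 62% of 100 probes shifted by 0.5 and 91% of 100 shifted by 1 were recovered, and 6 of 159 calls were false. The simulated noise was independent between probes and held no slide or dye effect. These shares therefore check the code and do not give the rate of false calls in the real data. Alternatives covered normalization, filters, probe choice, slide and replicate blocks, and leaving out each array or miRNA. Some items are not reported here.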

Additional observations from a re-analysis of the deposited data

Results flagged for a closer look

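The log2 ratio differed between the 5 miRNAs for 126 genes (limma F-test, adjusted p under 0.05), and 19 of them are members of the lists described above. Each is given with its adjusted p and the miRNA mean that stood apart. TMSB10, a thymosin that binds actin monomers, was at -1.81 in miR-629* and between -0.21 and 0.01 in the others (2.70e-05). ZMAT3, a p53 target, was at -2.47 in miR-574-3p and at 0.39 in miR-629* (0.000168), and ERH was at -1.10 in miR-574-3p (0.000346).

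Lower values in miR-574-3p were found for ATP6V0E1 (-0.80, 0.000478), PSME2 (-0.59, 0.00158), SNRPE (-0.60, 0.00211), HIST3H2BB (-1.11, 0.00297), HIST1H2BD (-0.73, 0.00699), NDUFA1 (-0.52, 0.00800), MSN (-0.56, 0.00850), SRF (-0.22, 0.0109), NDUFB3 (-0.98, 0.0174) and RPL34 (-0.13, 0.0244). In miR-565, RPL23A was at -0.63 (0.000245) and NDUFB4 at -0.55 (0.000325). In miR-629*, GABARAPL2 was at -0.37 (0.00181) and EIF6 at -0.69 (0.0302). UQCR11 was at -0.50 in miR-766 (0.00800). TAF15, an RNA-binding protein, ran from 0.78 in miR-181d to -1.32 in miR-766 (0.00975).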

How the results depend on the processing

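With 1 array left out, the number of genes called in the mean over 5 miRNAs ran from 2362 to 9608 (1451 to 5352 higher, 911 to 4256 lower), and with 1 miRNA left out from 1294 to 6869 (761 to 3920 higher, 533 to 2949 lower). Genes lower in all 5 miRNAs numbered 2477 to 4266 with 1 array left out and 3393 to 4708 with 1 miRNA left out. The F-test between miRNAs called 56 to 883 genes with 1 array left out, with 60, 56 and 61 when a replicate of miR-574-3p was left out, and 25 to 688 with 1 miRNA left out, with 25 without miR-574-3p and 688 without miR-565. Fits over the 15 arrays gave 9231 calls with a coefficient per miRNA (5156 higher, 4075 lower) and 24 with the slide as a random block (17 higher, 7 lower, consensus correlation 0.762). Without a filter 6895 genes were lower in all 5 miRNAs. With the GC median of the probes removed, an alternative chosen after the data were seen, the F-test called 193 genes. POLE changed sign with the mean of its probes (0.0529, adjusted p = 0.61). The cause of these changes was not tested.

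With the replicate number as a replicate block, 9257 genes were called (5146 higher, 4111 lower). Deviations of same-numbered arrays correlated between -0.455 and 0.568 (median 0.109, 30 pairs). Those of other arrays correlated between -0.640 and 0.542 (median -0.038, 60 pairs). The ranges overlapped, and the numbers were not taken as pairs. The share of calls that were higher was 55.2%, 45.5% with median centering, 43.8% after normexp and loess and 48.8% with the GC median removed. Of the values of single genes under the alternatives, 2456 kept their direction and side of the threshold, 122 no longer passed it, 38 newly passed it, and 1 reversed. The number of arrays limits the precision.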

Other observations

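Transcript classes outside the lists are given as values without a test. Of 69 tested genes annotated as pseudogenes, 5 were called higher and 29 lower (42.0%, against 11.3% of all genes), with a median log2 ratio of -0.11. Of 108 transcribed pseudogenes, 10 were called higher and 21 lower (19.4%), with a median of -0.06. Pseudogene probes can also bind the parent mRNA, and which RNA was read was not tested. Of 32 olfactory receptor genes, which sense odorants in the nasal epithelium, 9 were called higher (28.1%, against 14% of all genes) and 1 lower, with a median of 0.13. These 9 include OR2W3, which passed the filter through Cy5 only, so that this share is not read as a result. Of 379 numbered zinc finger genes, 30 were called higher and 22 lower, both below the shares of all genes. Of 58 long noncoding RNAs, 8 were called higher and 9 lower, against 14% and 11.3% of all genes, and DLEU2, the host transcript of miR-15a and miR-16-1, was positive on all 15 arrays (0.25 ± 0.042, adjusted p = 0.0086).

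Probes with less than 35% GC were called higher in 30.9%, and probes of 55% to 60% GC were called lower in 20.7%.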
